A study of Mus musculus with 42 samples.

Results

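The genes described here encode 10 receptor chains for IL-10, IL-12, IL-18, IL-27 and the interferons. They were taken as a named list (Il10ra, Il10rb, Il12rb1, Il12rb2, Il18r1, Il18rap, Il27ra, Il6st, Ifngr1 and Ifnar1) out of 54353 genes counted in every bulk RNA-Seq library. Their levels were read in 34 bulk libraries of mouse uterine tissue-resident natural killer (trNK) cells. For 8 of the 10, levels were also read in a single-cell matrix of sorted uterine NK1.1+NKp46+ cells, where Il18r1 and Ifnar1 were not analysed here.

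All groups came from wild-type C57BL/6 females 8 to 12 weeks old, and each bulk group held 2 libraries, so that 17 groups formed 4 experiments. In the gestation experiment, CD45+NK1.1+NKp46+CD49a+CXCR6- trNK cells were sorted from virgin mice and at gestation days (gd) 6.5 and 8.5. In the subset experiment, the same gate at gd8.5 was divided by the surface proteins CD55 and 4-1BB into CB_low, CB_int and CB_hi cells, named trNK-V (virginal), trNK-D (differentiating) and trNK-T (terminal) below. The inhibitor culture compared trNK cells without added IL-21, with 20 ng/mL IL-21 for 3 days, and with the same IL-21 plus 1 μM Stattic, a STAT3 inhibitor (iSTAT3). The study's methods give 10 ng/mL IL-15 in the culture medium, which the labels of the inhibitor culture leave out. The time course held trNK cells sorted at gd6.5, which the study describes as trNK-V. Its libraries were labelled as cultured in 10 ng/mL IL-15, with or without 20 ng/mL IL-21, for 0, 6, 24 and 72 h. The treatment notes of the time course give 15 ng/mL for the IL-15, and which dose was used is not settled here. In the gestation and subset experiments the gate limits what each group can hold. NK1.1, NKp46 and CD49a were required, and CXCR6, which marks type 1 innate lymphoid cells, was excluded. Marker genes of other cell types were still read in these groups, as given below. The single-cell libraries came from pooled uteri of 5 virgin and 2 gd8.5 mice, gated on CD45+NK1.1+NKp46+ alone, and their cells were not assigned to virgin or gd8.5 here.

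Cytokine receptors of these families are built from a chain that binds the ligand and a chain that carries the signal, and both are generally needed. IL-12 engages Il12rb1 with Il12rb2 and signals mainly through STAT4, and the same Il12rb1 joins Il23r in the receptor for IL-23. IL-18 binds Il18r1 and recruits Il18rap, which couples to the adaptor MyD88 and the IRAK kinases, and IL-12 with IL-18 is a classical stimulus for interferon gamma release by NK cells. IL-10 binds Il10ra together with Il10rb, a chain shared with IL-22 and lambda interferon, whereas IL-27 uses Il27ra with gp130, the product of Il6st. Interferon gamma binds Ifngr1 and needs Ifngr2 to signal, and type I interferon uses Ifnar1 with Ifnar2. Interferon gamma from uterine NK cells is known for its part in remodelling the spiral arteries of the decidua.

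Bulk library totals ran from 11862089 to 66468883 counts. Virgin replicate 1 was counted over 55573 genes and every other library over 54446. The genes shared by all libraries held 99.897% of the counts of virgin replicate 1 and 99.994% of those of virgin replicate 2. The trNK markers Ncr1, Klrb1c, Eomes and Itga1 were above 0 in every library. The 2 virgin libraries were unlike each other in stage genes, and by these genes the library labelled virgin replicate 2 was the one near the pregnant groups. Its summed level of 6 terminal-stage genes was 16920 RPKM (counts scaled by exon length and library total), within the range of 14010 to 20460 RPKM at gd6.5 and gd8.5, whereas replicate 1 was at 1118 RPKM and trNK-V at 3231 and 3357 RPKM. The sum of 5 virginal-stage genes was 80.3 RPKM in replicate 2, within the range of 54.95 to 94.6 RPKM at gd6.5 and gd8.5, against 232 RPKM in replicate 1. The part of the different gene list of virgin replicate 1 in this split was not tested. Some other sums set both virgin libraries apart from gd6.5 and gd8.5. The 4 trNK markers summed to 1222 and 1241 RPKM in virgin, against 710.5 to 933.2 RPKM at gd6.5 and gd8.5. For 6 STAT and IRF genes the sums were 165.7 and 219.8 RPKM against 119.5 to 140.2 RPKM. At 72 h of the time course replicates were also far apart, with 1122 of 3503 tested genes differing over 2-fold between the pair without IL-21 and 1049 with it. Nothing in the labels says whether replicates came from separate animals, so p-values measure only the spread between these libraries.

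Ifngr1, the ligand-binding chain for interferon gamma, had the highest level of the 10 receptor genes in all 17 groups. Its level ran from 35.4 to 451 RPKM over the 34 libraries, and in trNK-V it was 369 and 344 RPKM. In trNK-V the next levels were those of Il27ra at 39.1 and 47.0 RPKM and Il10rb at 44.6 and 34.3 RPKM, whose libraries overlapped each other. Il10ra at 31.9 and 26.0 RPKM and Ifnar1 at 21.7 and 28.2 RPKM also overlapped. Il18rap followed at 15.5 and 12.6 RPKM, Il12rb2 at 11.2 and 12.3 RPKM and Il12rb1 at 7.53 and 8.48 RPKM, each apart from its neighbours. Il18r1 was at 1.897 and 1.597 RPKM. Il6st, which encodes gp130, lay at or below 0.850 RPKM in every library and at 0 in 9 of them, with no more than 142 counts. The gp130 mRNA was thus near the limit of detection in all groups, although its partner Il27ra was among the higher chains.

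The genes lie apart in the genome except for a few neighbours. On build GRCm38 (mm10) Il18r1 (chr1:40465552-40500854) ends 14507 bases before Il18rap (chr1:40515362-40551705) on the same strand, and Il10rb (chr16:91406164-91425834) ends 59403 bases before Ifnar1 (chr16:91485238-91507441). Il12rb1 (chr8:70808449-70821424) and Il27ra (chr8:84030294-84042589) share a chromosome but are about 13200 kb apart. Il10ra is at chr9:45253837-45269149, Il12rb2 at chr6:67291318-67376188, Il6st at chr13:112464070-112510086 and Ifngr1 at chr10:19591949-19610229.

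RefSeq promoters were at hand for 6 of the 10 genes, and 3 are shown because these genes carry the main contrasts below. Il12rb2 and Il18rap are chains of the IL-12 and IL-18 receptors that were lower in trNK-T, and Ifngr1 is the chain with the highest level. Each is the 250 bases before the RefSeq start site on GRCm38.p6, printed 5′ to 3′ on the strand of the gene.
Il12rb2 (chr6:67376189-67376438, minus strand): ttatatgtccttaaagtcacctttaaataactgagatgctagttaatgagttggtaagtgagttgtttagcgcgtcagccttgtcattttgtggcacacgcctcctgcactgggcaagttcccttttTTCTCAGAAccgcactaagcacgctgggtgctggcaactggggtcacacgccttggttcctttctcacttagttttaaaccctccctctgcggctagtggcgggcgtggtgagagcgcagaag
Il18rap (chr1:40515112-40515361, plus strand): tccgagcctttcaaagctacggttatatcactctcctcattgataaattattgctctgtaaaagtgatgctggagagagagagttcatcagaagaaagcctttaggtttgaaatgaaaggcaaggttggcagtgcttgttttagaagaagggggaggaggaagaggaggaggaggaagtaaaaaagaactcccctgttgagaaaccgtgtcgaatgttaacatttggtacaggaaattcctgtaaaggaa
Ifngr1 (chr10:19591699-19591948, plus strand): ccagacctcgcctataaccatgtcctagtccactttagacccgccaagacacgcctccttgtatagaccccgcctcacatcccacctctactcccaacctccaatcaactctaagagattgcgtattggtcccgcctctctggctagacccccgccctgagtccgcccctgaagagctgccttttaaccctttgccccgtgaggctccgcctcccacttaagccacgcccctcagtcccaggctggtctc
Capitals mark the only match among these 3 windows to the STAT motif GAS (TTCNNNGAA), which stands 123 to 115 bases before the Il12rb2 start. The letters were searched on both strands together with the interferon-response element ISRE (TTTC, any 2 bases, TTTC) and a T-box motif (AGGTGTGA), and no match overlapped another. Of 32807 promoters of the same length, 7.02% held GAS, 2.97% held ISRE and 1.12% held the T-box motif. Neither ISRE nor the T-box motif matched in the windows of Il12rb2, Il18r1, Il18rap, Il6st, Ifngr1 or Ifnar1. One of 3 Il18r1 windows (chr1:40465756-40466005) held 2 GAS matches, TTCTGGGAA and TTCCCAGAA. A match is a description of letters and was not tested for binding.

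**Figure D1:**
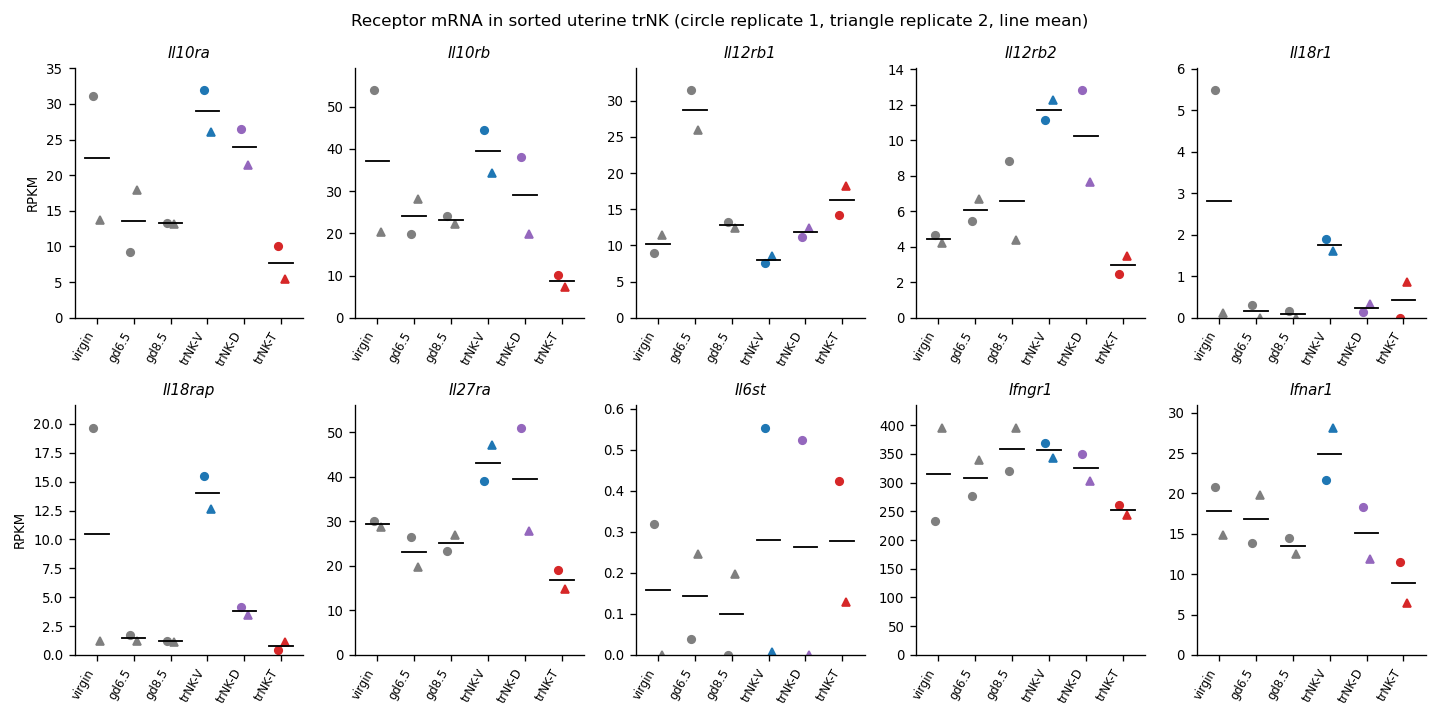
Level of each receptor gene (y axis, RPKM, each panel on its own scale from 0) in the gestation groups (grey) and in the 3 gd8.5 subsets trNK-V (blue), trNK-D (purple) and trNK-T (red), with a point for each of the 2 libraries of a group and a line at their mean. Il18rap and Il18r1 are high in virgin replicate 1 and near 0 in replicate 2, Il12rb1 peaks at gd6.5, and the trNK-T points lie below both trNK-V points for every gene except Il12rb1 and Il6st.

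The gestation experiment asked how receptor expression changes from the virgin uterus into decidualization. Il12rb1, the chain shared by the IL-12 and IL-23 receptors, was at 8.92 and 11.4 RPKM in cells of virgin mice, at 31.4 and 26.0 RPKM at gd6.5, and at 13.3 and 12.5 RPKM at gd8.5. Both gd6.5 libraries lay above all others of the experiment. From virgin to gd6.5 it rose by 1.41 on the log2 scale (SE 0.22, 2.66-fold, edgeR quasi-likelihood adjusted p = 0.0288), and it was the only 1 of the 6 receptor genes tested to be called, where a call needed an adjusted p under 0.05 and over 2-fold change. Over all 4504 genes tested, 6.17% were called in this comparison. This call depended on the processing: 5 of its 13 alternatives kept it and 8 did not, with adjusted p from 7.36e-07 with DESeq2 to 0.242 without gd6.5 replicate 1 and a log2 fold change between 1.25 and 1.60. Without the library labelled virgin replicate 2 it was kept, at a log2 fold change of 1.60. The call was also lost without gd6.5 replicate 2 and without either gd8.5 library, where the count of receptor genes called was 0. In the fit without the level filter no receptor gene was called, where 0.027% of 18522 genes were. Summed levels of 4 cell-division genes were 164 and 102 RPKM at gd6.5, against 37.4 and 73.2 RPKM in cells of virgin mice and 80.0 and 86.0 RPKM at gd8.5, and their part in the result was not tested.

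From gd6.5 to gd8.5 Il12rb1 stood at a log2 fold change of -1.14 (SE 0.22, 2.20-fold lower, edgeR adjusted p = 0.0947), short of the threshold. No gene at all was called there by edgeR (0.0% of 4504), although 1071 had an unadjusted p under 0.05. With DESeq2 1 receptor gene, Il12rb1, was called, where 4.91% of the genes tested were.

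The chains of the IL-10 receptor differed more between the 2 virgin libraries than between times. Il10ra was at 31.2 and 13.7 RPKM in cells of virgin mice, 9.21 and 17.9 RPKM at gd6.5 and 13.3 and 13.1 RPKM at gd8.5. Il10rb was at 53.9 and 20.4 RPKM in cells of virgin mice, 19.9 and 28.2 RPKM at gd6.5 and 24.2 and 22.1 RPKM at gd8.5. Replicate 1 of virgin was the higher in both, and the library labelled virgin replicate 2 lay within the range of the 4 pregnant libraries. At gd8.5 none of the 6 receptor genes tested was called against virgin by edgeR, where 0.422% of genes were called. None of these 6 had an unadjusted p under 0.05, which 14.2% of genes had, and DESeq2 called none of them. Without virgin replicate 2, 2 were called lower at gd8.5 and at gd6.5 (Il10ra and Il10rb), which made 3 receptor genes called at gd6.5 against virgin. Calls over all genes also went up without that library, to 10.7% of genes at gd8.5 (5.62% lower) and to 17.4% at gd6.5 (7.97% lower).

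Il18rap, the accessory chain of the IL-18 receptor, was at 19.7 RPKM (3049 counts) in virgin replicate 1 and at 1.17 RPKM (144 counts) in replicate 2, and between 1.16 and 1.74 RPKM in the 4 libraries of gd6.5 and gd8.5. Its ligand-binding partner Il18r1 followed the same split, at 5.48 and 0.126 RPKM in cells of virgin mice and at 0.310 RPKM or less in the 4 others. Neither passed the level filter, and in the fit without that filter Il18rap had a log2 fold change of -2.80 at gd6.5 against virgin (SE 1.01, adjusted p = 0.282) and -3.11 at gd8.5 (SE 1.03, unadjusted p = 0.0175, edgeR adjusted p = 0.514). These comparisons share the virgin libraries. The summed level of 5 marker genes of circulating conventional NK (cNK) cells was 604 RPKM in virgin replicate 1 and 462 RPKM in replicate 2, with 1 gene, S1pr5, at 0 in both and Klra8 at 573 and 459 RPKM. The part of other NK cells, and of the different gene list of virgin replicate 1, in the split was not tested.

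Neither interferon receptor chain was called over gestation. Ifngr1 was at 233 and 396 RPKM in cells of virgin mice, 276 and 339 RPKM at gd6.5 and 321 and 395 RPKM at gd8.5, with overlapping libraries. Ifnar1 lay between 12.5 and 20.8 RPKM in the 6 libraries. Il27ra lay between 19.7 and 30.1 RPKM, with both libraries of gd6.5 and of gd8.5 below those of virgin but a log2 fold change of only -0.44 at gd6.5 (SE 0.21, adjusted p = 0.204). Il12rb2, the signalling chain of the IL-12 receptor, lay between 4.23 and 8.81 RPKM and Il6st between 0 and 0.318 RPKM, and both were under the level filter.

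The subsets asked how the receptors change along differentiation at gd8.5, and here most of them fell. In trNK-T, 6 receptor genes were lower and 1 was higher than in trNK-V by the call rule, out of 8 tested. The fallers were both IL-10 receptor chains, Il12rb2, Il18rap, Il27ra and Ifnar1, and Il12rb1 rose. Over all 4683 genes tested, 21.2% were called in this comparison, 8.05% higher and 13.1% lower. The median log2 fold change of the 8 receptor genes tested was -1.69, beside -0.01 over all genes. Il12rb2 and Il18rap passed the level filter only through trNK-V, where they were high. Il10ra, Il10rb and Ifnar1 passed only through trNK-V and trNK-D, and Il12rb1 only through trNK-D and trNK-T. The count over the tested genes is therefore a description. Without the filter all 10 could be fitted, 5 were called where 4.56% of all genes were, and Il27ra and Ifnar1 were no longer called.

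**Figure D2:**
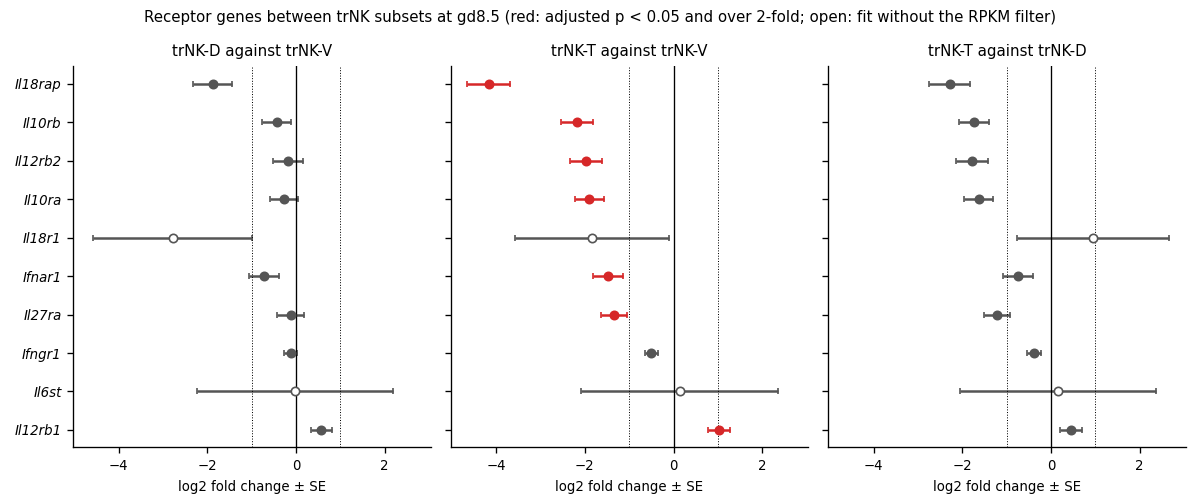
Log2 fold change (x axis, bars are 1 SE) of each receptor gene in the 3 comparisons between trNK subsets, red where the adjusted p was under 0.05 and the change over 2-fold, open where the gene failed the level filter and the value is from the fit without it. Dotted lines mark 2-fold. In trNK-T against trNK-V 7 genes are red, from Il18rap at -4.17 to Il12rb1 at 1.02, and the other comparisons hold none.

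Il18rap showed the largest difference of the 10. It was at 15.5 and 12.6 RPKM in trNK-V, 4.12 and 3.46 RPKM in trNK-D and 0.432 and 1.14 RPKM in trNK-T, so that no libraries of the 3 subsets overlapped. It was 18.0-fold lower in trNK-T than in trNK-V (log2 -4.17, SE 0.49, edgeR adjusted p = 0.00373), a call kept under all 13 alternatives with log2 fold changes from -5.01 to -3.60. Il18r1 was low in all subsets, at 1.897 and 1.597 RPKM in trNK-V, 0.130 and 0.327 RPKM in trNK-D and 0 and 0.858 RPKM in trNK-T, and its log2 fold change of -1.83 (SE 1.74) had an adjusted p of 0.579 in the fit without the filter. Il18r1 lay below Il18rap in trNK-V and in trNK-D, and the libraries of the 2 chains overlapped in trNK-T.

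The 2 chains of the IL-12 receptor moved in opposite directions. Il12rb2 was at 11.2 and 12.3 RPKM in trNK-V, 12.8 and 7.67 RPKM in trNK-D and 2.48 and 3.47 RPKM in trNK-T. Its fall from trNK-V to trNK-T was 3.93-fold (log2 -1.98, SE 0.36, adjusted p = 0.00979), and both trNK-T libraries lay below all 4 others. Il12rb1 was at 7.53 and 8.48 RPKM in trNK-V, 11.2 and 12.4 RPKM in trNK-D and 14.2 and 18.3 RPKM in trNK-T, again with no overlap between subsets. Its rise from trNK-V to trNK-T was 2.03-fold (log2 1.02, SE 0.25, adjusted p = 0.022), close to the 2-fold limit, and it was kept in 10 of 13 alternatives with adjusted p up to 0.147.

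Both IL-10 receptor chains were at their lowest in trNK-T. Il10ra was at 31.9 and 26.0 RPKM in trNK-V, 26.4 and 21.4 RPKM in trNK-D and 10.0 and 5.42 RPKM in trNK-T, a 3.74-fold fall from trNK-V (log2 -1.90, SE 0.33, adjusted p = 0.00835). Il10rb went from 44.6 and 34.3 RPKM through 38.2 and 19.7 RPKM to 10.2 and 7.17 RPKM, a 4.52-fold fall (log2 -2.18, SE 0.35, adjusted p = 0.00707). For both genes trNK-V and trNK-D overlapped, while trNK-T lay below every other library.

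Among the chains for IL-27 and the interferons, Il27ra was at 39.1 and 47.0 RPKM in trNK-V, 51.0 and 27.7 RPKM in trNK-D and 19.0 and 14.9 RPKM in trNK-T. It fell 2.54-fold from trNK-V to trNK-T (log2 -1.35, SE 0.30, adjusted p = 0.0181). Ifnar1 went from 21.7 and 28.2 RPKM through 18.3 and 11.8 RPKM to 11.5 and 6.37 RPKM, a 2.78-fold fall (log2 -1.48, SE 0.34, adjusted p = 0.0201). Ifngr1 was at 369 and 344 RPKM in trNK-V, 349 and 303 RPKM in trNK-D and 260.3 and 243 RPKM in trNK-T. The trNK-T libraries were below the others and the adjusted p was 0.0432, but at 1.41-fold (log2 -0.50, SE 0.15) it missed the 2-fold limit. Il6st was between 0 and 0.555 RPKM in the 6 libraries and overlapped in every comparison.

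The count of 7 rested partly on single libraries. Leaving out each library in turn gave between 3 and 7 calls: 3 without trNK-T replicate 2 (Il10ra, Il12rb2 and Il18rap), where 8.93% of all genes were called, and 4 without trNK-V replicate 2 (these and Il10rb), where 13.1% were. Summed levels of 7 macrophage genes were 37.0 and 116 RPKM in trNK-V, 65.1 and 87.7 RPKM in trNK-D and 18.1 and 12.4 RPKM in trNK-T, with Csf1r, the receptor that defines these cells, at 0 in both trNK-T libraries and in trNK-V replicate 1. Summed levels of 5 cNK genes were 810.6 and 1293 RPKM in trNK-V, 606 and 490 RPKM in trNK-D and 241 and 247 RPKM in trNK-T. Most of that was Klra8, and S1pr5 was at 1.71 and 4.87 RPKM in trNK-V and 0 in both trNK-T libraries. Summed levels of 5 genes of type 1 innate lymphoid cells were 14.2 and 49.5 RPKM in trNK-V, 10.6 and 18.5 RPKM in trNK-D and 0.307 and 0.222 RPKM in trNK-T, with 3 of the 5 at 0 in each trNK-T library. Summed levels of 5 stromal genes were 42.1 and 3.06 RPKM, 3.30 and 1.12 RPKM, and 0.513 and 0.344 RPKM in the same order. The 4 cell-division genes went the other way between the ends, at 50.5 and 59.9 RPKM in trNK-V, 28.6 and 141.6 RPKM in trNK-D and 94.7 and 147.5 RPKM in trNK-T, beside the rise of Il12rb1. Mast cell genes (4) were also higher at the end, at 1.61 and 0.131 RPKM in trNK-V, 1.74 and 6.91 RPKM in trNK-D and 9.86 and 7.53 RPKM in trNK-T. Summed T cell genes (7) were lower, at 531 and 572 RPKM in trNK-V against 381 and 237 RPKM in trNK-T, as were gamma delta T genes (3), at 73.3 and 36.9 against 6.80 and 26.01 RPKM, and B cell genes (5), at 253 and 299 against 189 and 169 RPKM. Neutrophil and monocyte genes (6) were at 327 and 332 against 297 and 146 RPKM. The 4 trNK markers themselves summed to 1379 and 1388 RPKM in trNK-V, 1173 and 979 RPKM in trNK-D and 799 and 644 RPKM in trNK-T. Fewer cells of a type and less RNA per cell cannot be told apart in bulk libraries, and the part of these other cells and of dividing cells in the falls and the rise was not tested.

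Between trNK-T and trNK-D no receptor gene was called by edgeR, where 1.75% of genes were, but 6 of the 8 tested had an unadjusted p under 0.05 and 7 of the 8 had both trNK-T libraries below both trNK-D libraries. Over all 4683 genes tested, 22.9% had such a p and 29.5% had both trNK-T libraries below both trNK-D libraries. Il18rap (log2 -2.29, SE 0.46), Il12rb2 (-1.79, SE 0.36), Il10rb (-1.74, SE 0.35) and Il10ra (-1.64, SE 0.32) each had an adjusted p of 0.0613, and Il27ra (-1.22, SE 0.30) one of 0.0877. DESeq2 called these 5, where it called 6.96% of all genes tested. Between trNK-D and trNK-V none was called by edgeR, where 0.32% of genes were, and Il18rap had a log2 fold change of -1.88 (SE 0.44, adjusted p = 0.128) with both trNK-D libraries lower. DESeq2 called it, where it called 3.99% of genes. Of the 8 tested, Il18rap alone had an unadjusted p under 0.05, against 20.1% of all genes. All 3 comparisons share libraries and are not independent of each other.

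Partner chains and signalling genes of the same pathways were read from 5 lists with 44 genes, of which 19 passed the level filter in the subset experiment. In trNK-T against trNK-V none rose and 11 fell, where 8.05% of all genes tested were called higher and 13.1% lower. Stat4, the transcription factor downstream of IL-12, showed the largest fall among them, from 53.2 and 72.3 RPKM in trNK-V through 36.2 and 28.5 RPKM in trNK-D to 12.6 and 11.9 RPKM in trNK-T (log2 -2.35, SE 0.22, edgeR adjusted p = 0.00187). It was also the only pathway gene called against trNK-D (log2 -1.41, SE 0.21, adjusted p = 0.039). Ifnar2, the partner of Ifnar1, was at 42.1 and 55.2 RPKM in trNK-V and 14.3 and 10.3 RPKM in trNK-T (log2 -1.98, adjusted p = 0.00541). Ifng, which encodes interferon gamma itself, went from 47.5 and 94.7 RPKM to 20.2 and 21.9 RPKM (log2 -1.76, adjusted p = 0.0138).

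Of 6 kinases and adaptors tested 4 fell, namely Jak1, a kinase bound to most of these receptors (log2 -1.19), Irak1 (-1.11), Irak2 (-1.80) and Tab2 (-1.10), which act below the IL-18 receptor. Irf1 (-1.64) and Irf9 (-1.68), transcription factors of interferon signalling, also fell, as did the inhibitors Socs1 (-1.43) and Ptpn6 (-1.19), with edgeR adjusted p between 0.00458 and 0.0397 over these 8 genes. Falls covered both activating and inhibitory genes.

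At gd6.5 against virgin, 3 of the 19 pathway genes tested fell and none rose. Ifng went from 106 and 140.2 RPKM to 25.72 and 27.96 RPKM (log2 -2.28, SE 0.37, adjusted p = 0.0302). Usp18, a brake on type I interferon signalling, fell by 1.15 on the log2 scale (edgeR adjusted p = 0.0332). None of the 19 was called at gd8.5 against virgin or against gd6.5, nor in trNK-D against trNK-V.

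Ifngr2, without which Ifngr1 does not signal, was at 0 in 22 of the 34 bulk libraries and never above 0.728 RPKM or 54 counts. The highest value was in trNK-D replicate 2. Il6ra, Il23r, Il22ra1, Ifnlr1, Lifr and Osmr, which pair with gp130, Il12rb1, Il10rb or related chains, were at 0 in 25 to 33 libraries each, and none had more than 116 counts. Ifnar2 was the only partner chain above 0 in all 34 libraries.

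**Figure D3:**
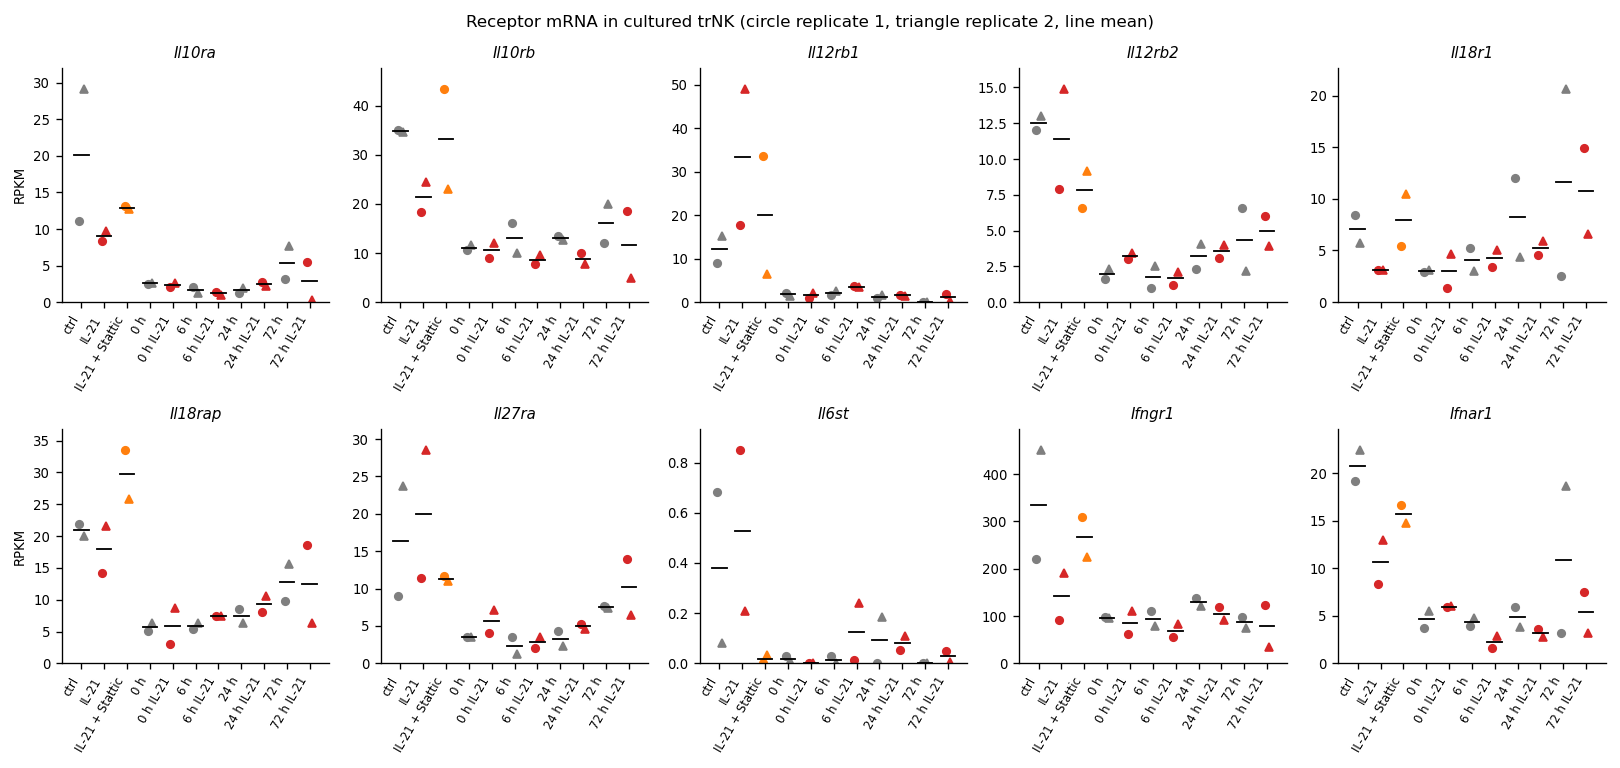
Level of each receptor gene (y axis, RPKM, each panel on its own scale from 0) in cultured trNK without IL-21 (grey), with IL-21 (red) and with IL-21 and Stattic (orange), for the 3-day inhibitor culture and for 0, 6, 24 and 72 h of the time course, with a point per library and a line at the mean. Replicates of the inhibitor culture and of 72 h lie far apart for several genes, and Il12rb1 is near 0 at 72 h without IL-21.

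The inhibitor culture asked what IL-21 and STAT3 inhibition do to cultured cells, which the labels give as live NK1.1+ cells and the study describes as sorted trNK-V of gd6.5 mice. No receptor gene was called by edgeR in any of the 3 comparisons, and DESeq2 and limma called none either. The share of all 4158 genes called was 0.289% for IL-21 against control, 2.96% for iSTAT3 against IL-21 and 4.74% for iSTAT3 against control. Ifngr1 was at 220 and 451 RPKM in control, 92.4 and 191 RPKM with IL-21 and 310 and 225 RPKM with iSTAT3, so both IL-21 libraries lay below the others (IL-21 against control log2 -1.08, SE 0.46, adjusted p = 0.536). Ifnar1 had the same order at 19.1 and 22.4 RPKM, 8.30 and 12.96 RPKM, and 16.7 and 14.8 RPKM (log2 -0.79, SE 0.34, adjusted p = 0.542). Of the 8 receptor genes that passed the filter, these 2 had an unadjusted p under 0.05 for IL-21 against control, against 9.19% of all genes. The 4 trNK markers summed to 966 and 1099 RPKM in control, 313 and 367 RPKM with IL-21 and 228 and 234 RPKM with iSTAT3. Sums of 7 macrophage genes were 18.9 and 20.7 RPKM, 22.2 and 28.9 RPKM, and 19.9 and 21.1 RPKM in the same order. The part of the cell mix in the receptor values was not tested.

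Il12rb1 was higher with IL-21, at 17.8 and 49.1 RPKM, than in control, at 9.10 and 15.2 RPKM, but replicates spread widely and the log2 fold change of 1.62 (SE 0.78) had an adjusted p of 0.613. With iSTAT3 it was at 33.7 and 6.37 RPKM. Il18rap was at 21.9 and 20.0 RPKM in control, 14.1 and 21.7 RPKM with IL-21 and 33.5 and 25.9 RPKM with iSTAT3 (iSTAT3 against IL-21 log2 0.84, SE 0.33, adjusted p = 0.217), and of the 8 receptor genes that passed the filter it alone had an unadjusted p under 0.05 in the comparisons of iSTAT3 with IL-21 and with control, which 19.8% and 22.5% of all genes had. Both iSTAT3 libraries were above the others. In this culture Il18r1 was measurable, at 8.48 and 5.70 RPKM in control, 3.12 and 3.16 RPKM with IL-21 and 5.39 and 10.5 RPKM with iSTAT3. In the fit without the filter its log2 fold change for iSTAT3 against IL-21 was 1.47 (SE 0.55, unadjusted p = 0.0291, edgeR adjusted p = 0.429), with the libraries apart. Of the pathway genes, Ifng was the only one called. It was at 11.97 and 22.08 RPKM in control, 354 and 363 RPKM with IL-21 and 176 and 305 RPKM with iSTAT3. It was called with IL-21 against control (log2 4.58, SE 0.48, adjusted p = 0.0136) and with iSTAT3 against control (log2 4.11, SE 0.46, adjusted p = 0.00584).

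The time course asked when IL-21 acts. Of the 10 receptor genes only Ifngr1 and Il10rb passed the level filter in these libraries. Neither was called in any of the 8 comparisons, neither had an unadjusted p under 0.05, and DESeq2 called none. Ifngr1 lay between 35.4 and 137 RPKM and Il10rb between 5.01 and 20.0 RPKM over the 16 libraries. The share of the 3503 tested genes called for IL-21 was 0.0% at 0 h, 1.97% at 6 h, 1.66% at 24 h and 8.08% at 72 h. It was 4.17% for the difference between the IL-21 effects at 72 h and 6 h, and without IL-21 0.0% for 6 h against 0 h, 0.0856% for 24 h against 6 h and 14.8% for 72 h against 24 h. Libraries labelled 0 h with and without IL-21 therefore did not differ by this rule.

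Il12rb1 was the receptor gene with the clearest pattern over the time course, all at low levels. Without IL-21 it was at 2.17 and 1.44 RPKM at 0 h, 1.69 and 2.52 RPKM at 6 h, 1.04 and 1.54 RPKM (129 and 272 counts) at 24 h, and 0.0341 and 0 RPKM (4 and 0 counts) at 72 h. With IL-21 it was at 1.05 and 2.19 RPKM, 3.62 and 3.42 RPKM, 1.67 and 1.38 RPKM, and 1.80 and 0.367 RPKM (271 and 43 counts) at the same times. In the fit without the filter, with 19766 genes, it was called at 72 h for IL-21 against none (log2 5.88, SE 1.28, adjusted p = 0.0195), where 3.36% of genes were called. It was also called for 72 h against 24 h without IL-21 (log2 -6.13, SE 1.29, adjusted p = 0.0119), where 5.31% were. These comparisons share the 72 h libraries without IL-21, the size of both values rests on 4 counts, and the difference between the IL-21 effects at 72 h and 6 h was not called (log2 5.18, SE 1.55, adjusted p = 0.146, where 1.72% were). Summed cell-division genes were at 5.15 and 0.540 RPKM in those libraries, against 264 and 248 RPKM at 24 h and 32.6 and 21.1 RPKM at 72 h with IL-21, and their part was not tested.

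The IL-18 receptor chains were present in all 16 time-course libraries, with Il18rap between 2.99 and 18.6 RPKM and Il18r1 between 1.41 and 20.7 RPKM. At 0 h without IL-21 Il18rap was already at 5.12 and 6.41 RPKM and Il18r1 at 2.95 and 3.07 RPKM. In the sorted gd6.5 libraries they were at 1.74 and 1.18 RPKM and at 0.310 and 0 RPKM. Il12rb1 stood the other way, at 2.175 and 1.44 RPKM at 0 h against 31.4 and 26.0 RPKM at gd6.5. These 2 experiments were not compared by a test. At 72 h without IL-21 Il18r1 was at 2.56 and 20.7 RPKM and Il18rap at 9.83 and 15.6 RPKM. With IL-21 Il18r1 was at 14.9 and 6.55 RPKM and Il18rap at 18.6 and 6.37 RPKM, so that groups overlapped for both. Il27ra at 72 h without IL-21, 7.62 and 7.40 RPKM, was above its 4.32 and 2.30 RPKM at 24 h (log2 1.42, SE 0.59, adjusted p = 0.234 without the filter). Ifnar2 was called among the pathway genes at 72 h with IL-21 against none (log2 1.29, SE 0.36, adjusted p = 0.0483) and 72 h against 24 h without IL-21 (-1.22, SE 0.36, adjusted p = 0.0401). Its IL-21 effect differed between 72 h and 6 h (2.05, SE 0.51, adjusted p = 0.0475). Tab2 was also called, higher at 72 h than at 24 h without IL-21 (log2 1.895, SE 0.55, adjusted p = 0.0368). Of the 44 pathway genes, 9 passed the level filter in the time course. The calls of Ifnar2 and Tab2 all share the 72 h libraries without IL-21 and are not independent. Replicates of that group differed over 2-fold in 1122 of 3503 genes.

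The 2 single-cell files listed the same 15175 cell barcodes with different genes, 6821 and 28416, and were joined by cell. Of these, 10573 cells had 200 to 2500 genes and 8907 of them also had under 10% mitochondrial UMIs. The 8907 had a median of 2576 UMIs, and 17 clusters were formed without the receptor genes. Virgin and gd8.5 cells form 1 sample here, so levels are given in CPM (the UMIs of a gene scaled to the total UMIs of its class) with a 95% Poisson interval that covers counting error only, and no test is possible. Named were 1206 virginal-stage and 1221 terminal-stage trNK-like cells, 500 dividing trNK-like and 1002 cNK-like cells, and 6 classes of other cells despite the NK gate, the largest being 869 macrophage-like cells. A further 2887 cells in 5 clusters did not meet the marker rule and stayed unnamed. They included a cluster of 1129 cells led by mast cell and gamma delta T genes (Mcpt4, Tcrg-C2). One of 479 cells was led by dendritic cell genes (Xcr1, Clec9a). Each of these had all 4 trNK markers over B-like cells, as did an unnamed cluster of 612 cells, so they may hold NK cells. Another, of 642 cells led by Ctsg, Mt2 and Tdrd9, had 2 of the 4 trNK markers, and with no upper limit on genes per cell Ctsg was among the leading genes of the terminal-stage class. B-like cells serve as the background for NK genes.

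**Figure D4:**
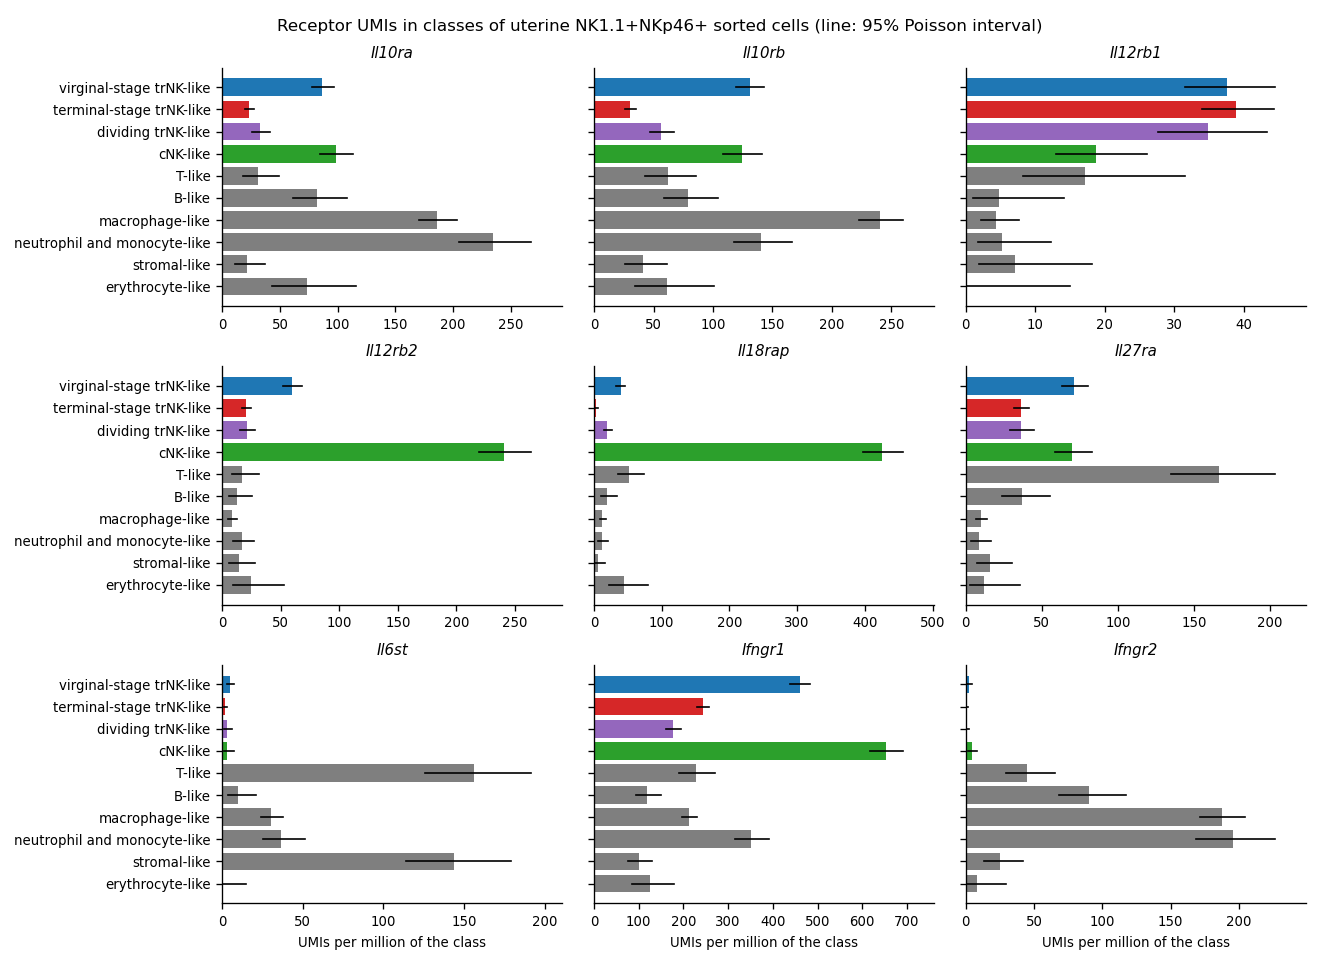
UMIs of each receptor gene and of Ifngr2 in CPM (x axis, each panel on its own scale from 0) in classes of NK1.1+NKp46+ sorted cells, with trNK-like classes in blue, red and purple, cNK-like cells in green and other classes in grey, and a line for the 95% Poisson interval. Il18rap and Il12rb2 are highest in cNK-like cells, Ifngr1 is highest in cNK-like and virginal-stage trNK-like cells, and Ifngr2 is near 0 in the 4 NK-like classes.

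Il18rap was highest in cNK-like cells, at 426 CPM (interval 397 to 456), and was among their 10 leading genes. Virginal-stage trNK-like cells had 39.2 CPM (33.1 to 46.2), dividing trNK-like cells 19.6 and terminal-stage trNK-like cells 3.45 (2.11 to 5.32, 20 UMIs), which is below the 19.4 (10.0 to 33.8) of B-like cells. Il12rb2 had the same order, at 241 (219 to 264) in cNK-like, 59.3 (51.6 to 67.8) in virginal-stage and 20.5 (17.0 to 24.5) in terminal-stage cells, against 12.9 (5.57 to 25.4) in B-like cells. Terminal-stage cells were thus at or below the level of B-like cells for Il18rap, and their interval overlapped it for Il12rb2. Il12rb1 showed another pattern, at 37.6 (31.6 to 44.5) in virginal-stage, 38.9 (34.03 to 44.36) in terminal-stage and 34.9 in dividing trNK-like cells, 18.7 in cNK-like cells and 4.84 (1.00 to 14.1) in B-like cells. In the unnamed cluster led by Ctsg it was at 20.2 (15.8 to 25.5), below both stage classes, so the like levels of the stage classes do not extend to these cells. The unnamed cluster of 1129 cells had Il18rap at 69.0 (59.5 to 79.6), above the virginal-stage class.

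Of the 8 receptor genes measured, 6 had a lower level in terminal-stage than in virginal-stage cells with intervals apart, and Il12rb1 and Il6st overlapped. Of 12250 genes with at least 10 UMIs in the 2 classes together, 25.3% were lower in the same way. Intervals separate more readily at higher counts. This share and those of the other settings include genes with few UMIs, so they are not matched to the counts of the receptor genes. The ratio of virginal to terminal stage was 11.4 for Il18rap, 4.29 for Il10rb, 3.67 for Il10ra, 2.89 for Il12rb2, 1.96 for Il27ra and 1.89 for Ifngr1. With no upper limit on genes per cell, or with more variable genes for clustering, these 6 were lower again (and Il6st too under the former), against 30.5% and 23.5% of genes, and Il12rb1 was higher in the terminal stage at 49.2 against 35.3 and 49.9 against 33.4 CPM. Under 2 other settings no stage classes were formed. The stage classes leave out the unnamed cluster led by Ctsg, where Il18rap was at 1.14 CPM, Il10rb at 5.13, Il10ra at 21.1, Il12rb2 at 7.41, Il27ra at 12.3 and Ifngr1 at 85.5. Median UMIs per cell were 2696 in virginal-stage and 5057 in terminal-stage cells.

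Il10ra had higher levels in myeloid classes than in trNK-like classes taken whole, and Il10rb had a higher level in macrophage-like cells. Il10ra was highest in neutrophil and monocyte-like cells at 235 CPM (205 to 268) and macrophage-like cells at 186 (171 to 203), against 98.4 in cNK-like, 86.7 in virginal-stage and 23.6 in terminal-stage cells. A virginal-stage cluster of 107 cells, described below, had Il10ra at 206 (155 to 268), which overlapped the myeloid classes. Il10rb was highest in macrophage-like cells at 241 (223 to 260), with 131 in virginal-stage and 30.5 in terminal-stage cells. The larger neutrophil and monocyte-like cluster had Il10rb at 141 (118 to 167), overlapping the larger virginal-stage cluster at 130.6 (118.7 to 143.4). Il27ra was highest in T-like cells at 166 (135 to 203), with 71.4 in virginal-stage and 36.4 in terminal-stage cells. Its partner Il6st was at 156 in T-like and 144 in stromal-like cells but between 1.72 and 4.67 in the 4 NK-like classes, each resting on 6 to 17 UMIs.

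Ifngr1 was high in cNK-like cells at 653 CPM (617 to 691) and virginal-stage cells at 461 (439 to 484), with 244 (231 to 257) in terminal-stage and 177 in dividing trNK-like cells, and 213 in macrophage-like and 119 in B-like cells. Ifngr2 had another distribution over classes, at 196 (169 to 226) in neutrophil and monocyte-like, 187 (172 to 204) in macrophage-like and 90.3 in B-like cells, but at 4.28 (1.85 to 8.43) in cNK-like, 2.20 in virginal-stage, 0.689 in terminal-stage and 0.436 in dividing trNK-like cells. Ifnar2 was at 58.5 (50.9 to 66.9) in virginal-stage and 11.9 (9.25 to 15.1) in terminal-stage cells, and Stat4 at 131 (120 to 144) and 39.6 (34.7 to 45.1).

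A cluster of 107 virginal-stage trNK-like cells was led by the interferon-induced genes Cxcl10, Ifit1 and Mx1. It had more Il10ra, 206 CPM (155 to 268, 55 UMIs), than the other virginal-stage cluster at 77.3 (68.2 to 87.3), and more Il12rb2, 123 (84.9 to 173, 33 UMIs) against 54.2 (46.6 to 62.7). Il18rap was at 89.7 (57.5 to 134, 24 UMIs) against 35.2 (29.2 to 42.2). Ifngr1 was at 359 (291 to 438) against 469 (446 to 493). Il10rb, Il12rb1, Il27ra and Il6st had overlapping intervals between the 2 clusters.

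Patterns across the 34 bulk libraries were compared by Pearson correlation of log2(RPKM + 1) after subtracting the mean of each experiment, among 5678 genes. The libraries share experiments and depth, so these values are descriptions. Il10ra and Il10rb were most alike among the 10, with r = 0.829, and Il18rap and Il18r1 had r = 0.752. Ifnar1 had r = 0.749 with Il10ra and 0.743 with Il10rb, its neighbour on chromosome 16. Il12rb1 had negative values with Il18r1 (-0.44), Ifnar1 (-0.41), Il10ra (-0.38) and Il18rap (-0.32). Il12rb2 was most like Il27ra among the 10, at 0.629.

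Among all genes compared, the 3 most like each receptor gene were different sets. For Il12rb1 they were Elmo2 (0.856), the glycolytic enzyme Pkm (0.842) and Rcc1 (0.830). For Il18rap they were Gna13 (0.824), Itpr2 (0.812) and the NK receptor chain Klrc1 (0.809), and for Il18r1 Zfp825 (0.776), Il18rap and Jak1 (0.737). Il10ra followed Il10rb, Smpdl3a (0.777) and Tcf7 (0.760), and Il10rb followed Smpd5 (0.871), H2-Q6 (0.850) and Il10ra. For Il12rb2 they were Dock2 (0.749), Sla (0.713) and Foxn3 (0.707), and for Il27ra Osbpl3 (0.813), Irf2 (0.736) and Srrm2 (0.727). Ifngr1 was most like Nub1 (0.779), Usp48 (0.763) and Nop53 (0.756), and Ifnar1 like H2-K2 (0.831), Arhgef3 (0.810) and Dock10 (0.798). Il6st, near 0 throughout, had no value above that with Tmem160 (0.671), followed by Dnajc24 (0.610) and Rras2 (0.605).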

How the data were processed

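The 10 receptor genes, the pathway lists and the marker lists were chosen with earlier results of these data known. Bulk values were raw read counts per gene as deposited by the authors, with HISAT2 2.1.0 and featureCounts named in the submitters' processing notes for GRCm38 (mm10), and RSEM named in the study's methods. Which counter made the table is not settled here. Paralogous reads could be split by the counter, and a bulk library prepared with PCR and no molecular identifiers does not count independent molecules.

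RPKM was computed from the counts, the library total and the exon length. Each experiment was fitted with edgeR 4.0.16 (quasi-likelihood test, TMM, Benjamini-Hochberg adjustment over all genes tested) in one model over all its groups, on genes over 10 RPKM in each of the 2 libraries of at least 1 group. A gene was called at an adjusted p under 0.05 and a change over 2-fold. Receptor genes under that filter took their values from the same fit without it. All 10 receptor genes, the pathway genes called in a comparison, marker genes and the 3 genes most like each receptor gene are named. Single pathway, ligand and cluster genes beyond these were named after their values were seen. Alternatives were DESeq2 1.42.0, limma voom (3.58.1), RLE size factors, other filters, a replicate block, the compared groups alone and leaving out each library. The fits were tested on simulated data.

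Single-cell UMI counts were deposited by the authors as 2 tables, made per the study's methods with the BD Rhapsody pipeline against GRCm39. Cells were clustered with scanpy 1.11.5 on 2000 variable genes without the receptor genes, 20 components, 20 neighbours and Leiden resolution 0.8. The thresholds for naming clusters (at least 3 markers, each at 3-fold over other cells and 10 UMIs, and for trNK markers 2-fold over B-like cells) were set after the clusters were seen, so a difference from the study may come from these names. Scrublet marked 1 doublet, so doublets were not removed. Files on chromatin accessibility were not used here, and values of some pathway and marker genes are not reported here.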

Additional observations from a re-analysis of the deposited data

Results flagged for a closer look

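Ifnar1, the first chain of the type I interferon receptor, had libraries with and without IL-21 apart at 3 of the 4 times of the time course. The direction at 0 h was opposite to that at 6 and 24 h. By the labels no time in IL-21 had passed at 0 h, so the 0 h difference cannot be read as an IL-21 effect. The share of all genes with libraries apart is not given here. At 0 h the mean with IL-21 was 1.335 RPKM above that without, with 5.93 and 5.99 RPKM against 3.71 and 5.53 RPKM. At 6 h the difference was -2.125 RPKM, with 1.56 and 2.88 RPKM against 3.93 and 4.76 RPKM, and at 24 h it was -1.662 RPKM, with 3.65 and 2.81 RPKM against 5.95 and 3.84 RPKM. At 72 h the libraries overlapped, with 7.54 and 3.17 RPKM against 3.21 and 18.6 RPKM (log2 -1.26, edgeR adjusted p = 0.424 in the fit without the level filter). Whether these differences differ from each other was not tested. Ifnar1 did not pass the level filter in this experiment, and in the edgeR fit without it the adjusted p was 1.0 at 0, 6 and 24 h.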

How the results depend on the processing

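Of 1314 log2 fold changes of the receptor genes under an alternative, 1277 stayed on their side of the call, 21 lost it, 16 gained it, and none of the called values changed sign, while 62 uncalled ones did. The 8 called values kept their call in 83 of 104 alternatives. At gd6.5 against virgin the count of receptor genes called was 0 with filterByExpr, without the level filter, with only the groups compared and with a replicate block. It was 1 at gd8.5 against gd6.5 with DESeq2 and with only the groups compared, 1 in trNK-D against trNK-V with DESeq2, and 5 with DESeq2 and 2 with the replicate block in trNK-T against trNK-D. It was 1 for IL-21 at 72 h and 1 for 72 h against 24 h without IL-21, each with filterByExpr and without the level filter. The cause was not tested, except that these last rest on a gene that other filters leave out.

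Leaving out 1 library gave 0 to 3 calls at gd6.5 against virgin, 0 to 2 at gd8.5 against virgin, 0 to 1 at gd8.5 against gd6.5, 3 to 7 in trNK-T against trNK-V, and 0 in the other comparisons. In that comparison the log2 fold change of Il18rap then ran from -5.01 to -3.60, of Il10ra from -2.39 to -1.52, of Il10rb from -2.43 to -1.94, of Il12rb2 from -2.23 to -1.73, of Il27ra from -1.51 to -1.17, of Ifnar1 from -1.95 to -1.11 and of Il12rb1 from 0.84 to 1.21. Where an arm then held 1 library, it was assumed to vary like the other groups.

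Replicate numbers are shared between groups, but nothing ties them to an animal or day, and same-numbered libraries did not deviate together throughout: correlations of deviations ran from -0.308 to 0.11 in gestation, -0.0085 to 0.387 in the subsets, -0.431 to 0.54 in the inhibitor culture and -0.337 to 0.407 in the time course. The replicate block moved the 2 counts above and no other. Of 272 single-cell levels under an alternative, 210 stayed within their interval, and no stage classes were formed with limits on UMIs in place of genes or at Leiden resolution 0.4.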

Other observations

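Ligands of these receptors were also read. Il10 was at 0 in both control libraries of the inhibitor culture, at 104.8 and 78.98 RPKM with IL-21 and at 0 and 1.36 RPKM with iSTAT3, and at 6 h of the time course it was at 17.96 and 22.01 RPKM with IL-21 against 0 and 0.023 RPKM without. Neither difference was called (edgeR adjusted p = 0.0823 for the culture and 0.0554 at 6 h). Il23a, the IL-23 subunit whose receptor uses Il12rb1, was at 15.5 and 3.98 RPKM in trNK-T, at 0 in both trNK-V libraries and at 0 and 0.0905 RPKM in trNK-D. It did not pass the level filter in the subset experiment, and no test of it is given here. Il12b, the gene of the other IL-23 subunit, was at 0 in all 34 bulk libraries, so these values do not show that IL-23 is made. Il23a was also read in the single-cell matrix. In single cells it was at 29.6 CPM (25.4 to 34.4) in terminal-stage and 1.92 CPM (0.772 to 3.96) in virginal-stage trNK-like cells.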
